A study of Mus musculus with 2 samples.

Results

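The genes described here are the amino acid carriers of the solute carrier families SLC1, SLC3, SLC7, SLC36, SLC38 and SLC43, measured in the gastrocnemius (GAS) muscle of mice that lack Gde5 in skeletal muscle. They were chosen by name: every probe that is not a control, lies on both arrays and has a gene name starting with Slc1a, Slc3a, Slc7a, Slc36a, Slc38a or Slc43a. This gave 68 of 41069 probes and 37 of 27555 gene names. Of the 37 names, 36 are carrier genes or their subunits, and the remaining name, Slc7a6os, belongs to a transcript named for the opposite strand of Slc7a6 and is not a carrier. Of the 20 member genes bright enough to test, 1, the sodium-coupled carrier Slc38a4, was called lower in Gde5 skKO muscle and 0 were called higher, beside 1.74% lower and 1.58% higher calls among all genes tested, so the share of members called was near that of the arrays.

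Amino acid carriers move amino acids across the plasma membrane and the membranes of lysosomes and mitochondria. Some, such as the SLC38 carriers of systems A and N and the glutamate carriers of SLC1, use the sodium gradient to accumulate their substrates, the SLC36 carriers use protons, and the light chains of SLC7 exchange amino acids only when joined to a heavy chain of SLC3. Skeletal muscle is a large store of amino acids, takes up and releases glutamine through these carriers, and adjusts protein synthesis to amino acid supply through mTORC1.

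Gde5, now named Gpcpd1, encodes a glycerophosphodiesterase that cleaves glycerophosphocholine. GAS muscle came from male C57BL/6 mice on a normal diet at 15 weeks of age, with wild-type (WT) controls and with skeletal muscle-specific Gde5 knockout mice (Gde5 skKO). In the knockout, a Cre recombinase under the promoter of human skeletal muscle actin removes a floxed part of Gde5, so that the deletion is limited to muscle fibres and the vessels, nerves, fat and connective tissue in the sample keep the gene. The labels call the controls wild-type, whereas the study's methods describe littermates with floxed Gde5 as controls for its tests on living mice, so the controls of the arrays may carry the floxed alleles. The design text of the series speaks of 5 mice, which may be 5 of each genotype, and does not tell whether RNA was pooled, whether both arrays hold the same RNA, or whether mice had been fasted or given glucose. The paper reports array results both after a glucose injection and with fasting. Which state each array holds is not labelled, and a difference in state between the arrays could not be told apart from the dye.

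Both genotypes were hybridized to each of 2 two-colour Agilent arrays, with Gde5 skKO RNA in Cy5 on array 1 and in Cy3 on array 2. A log2 ratio below 0 means less signal from Gde5 skKO than from WT muscle on that array. The brightest probe stood for a gene, which was tested when the scanner software flagged that probe as well above background on both arrays, in 1 channel or more. To be called, a gene needed a Feature Extraction p-value under 0.05 on array 1 and on array 2, in the same direction. Such a p-value comes from an error model within the array and holds nothing about how much mice differ. As a check of the labels, 3 of the 4 Gpcpd1 probes, which the arrays list under the older name Prei4, had mean log2 ratios of -2.97, -3.18 and -2.93. The brightest probe had -0.26, with Feature Extraction p-values of 0.805 and 0.0255, so by the rule above Gpcpd1 itself was not called. A gene with several probes can thus differ without a call. The share of spots, controls left out, with the background flag was 53.2% on array 1 and 44.6% on array 2 for Gde5 skKO RNA, and 45.6% and 47.4% for WT RNA. No spot of a member gene was saturated or left out.

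In this muscle 20 of the 37 member genes were tested, and 18 had a probe well above background in all 4 channels. The 14 genes with no probe above background in any channel were the glutamate carriers of brain and retina Slc1a2, Slc1a6 and Slc1a7, the SLC3 heavy chain Slc3a1 and its partner Slc7a9, which take up cystine in kidney, the cystine and glutamate exchanger Slc7a11, the cationic amino acid carrier Slc7a3, the system N carrier Slc38a5, and Slc36a3, Slc7a4, Slc7a12, Slc7a13, Slc7a14 and Slc7a15. The neutral amino acid exchanger Slc1a4, the cationic amino acid carrier Slc7a1 and the proton-coupled carrier Slc36a4 reached the background flag in 1 channel only and were not tested. All 3 SLC43 genes and 4 of 5 SLC38 genes were tested, against 7 of 16 SLC7 names, 3 of 7 SLC1, 2 of 4 SLC36 and 1 of 2 SLC3 genes.

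By probe, 24 of the 68 were well above background in all 4 channels, 8 in some channels and 36 in none. Feature Extraction replaces a signal at the background by a set low value, and 10 probes had such values in both channels of both arrays, which gives a ratio of exactly 0. Among members above background in all 4 channels, the error of the mean log2 ratio of both arrays, from the error that Feature Extraction gives each ratio, lay between 0.145 and 0.209. For Slc7a10 and Slc1a3, which were above background in 3 channels, it was 0.288 and 0.264.

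**Figure D1:**
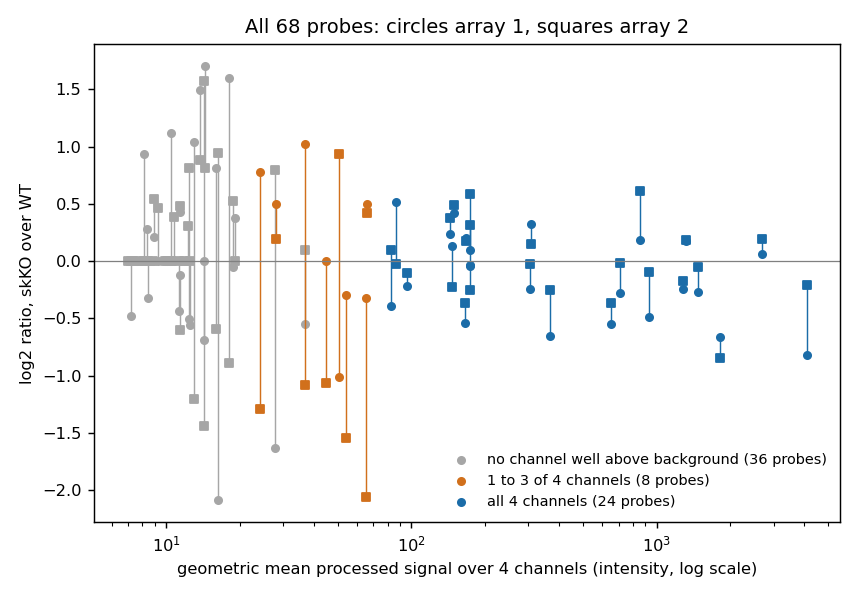
Log2 ratio of Gde5 skKO over WT (vertical axis) against the geometric mean of the processed signal over the 4 channels (horizontal axis, log scale) for each of the 68 probes, with a line joining array 1 (circle) and array 2 (square). The 24 probes above background in all 4 channels (blue) stay between -0.85 and 0.62, whereas the 36 probes above background in no channel (grey) scatter widely, with 10 of them at exactly 0 on both arrays.

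Slc38a4 encodes SNAT4, a sodium-coupled carrier of neutral amino acids that also takes cationic ones, and it is a gene of liver and muscle. Its brightest probe lies on chromosome 15 of the mouse assembly mm8, from 96823085 to 96823144 on the minus strand. On array 1 its processed signal was 1461 in Gde5 skKO and 2307 in WT muscle, and on array 2 it was 1336 and 2405. Both Gde5 skKO values were below both WT values. The log2 ratios were -0.66 ± 0.21 and -0.85 ± 0.22 (Feature Extraction error), with Feature Extraction p-values of 0.00198 and 0.000104, a mean of -0.75 and an interval of -1.05 to -0.45 that covers the error within arrays only. Slc38a4 was therefore called lower, at rank 157 from the lowest of 13571 genes. In a bulk sample, fewer cells of a type and less RNA per cell cannot be told apart.

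A second Slc38a4 probe covers bases from 96841500 to 96844175, upstream of the brightest probe in the direction of transcription, and its 60 bases span 2676 bases of the genome, as those of a probe across a splice junction do. Its signals were 282 in Gde5 skKO and 443 in WT on array 1, and 353 and 420 on array 2. The direction was that of the brightest probe on both arrays, but the difference was smaller on array 2: the log2 ratios were -0.65 and -0.25, with Feature Extraction p-values of 0.00314 and 0.245, so this probe alone was not called. The mean over both probes was -0.60. After Benjamini-Hochberg adjustment over all genes on each array, the p-values of the brightest probe were 0.0643 and 0.00837, so the call was lost on array 1 under this stricter rule.

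Because Slc38a4 is also a gene of liver, the liver markers are given beside it. Of 5 liver genes listed, 4 are on the arrays and 1, albumin (Alb), was tested, with log2 ratios of -1.03 and -0.28 and no call. Apoa1, Apoa2 and Ttr were not well above background on both arrays. The summed signal of the 4 genes was 118 and 136 in Gde5 skKO and 205 and 254 in WT muscle, and its part in the Slc38a4 result was not tested.

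Reading the calls against the whole array, 1 of 20 tested members was called, or 5%, beside 3.32% of all 13571 genes. For lower calls the background was 1.74%, and for higher calls, of which the members had 0, it was 1.58%. With so few members, 1 call is near what the background gives, and it is no result about the families as a group. Past the threshold on both arrays but with opposite signs, the direction of the dye, where the background was 1.56%, there was no member gene. A single probe did this, the second probe of Slc1a3, at -1.01 on array 1 and 0.94 on array 2.

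A moderated test of the normexp and loess ratios of both arrays in limma had 8.51% of all genes at an unadjusted p under 0.05. By this rule 1 member was higher, Slc38a3 at an unadjusted p of 0.0169, and 3 were lower, Slc38a4, Slc38a2 and Slc36a2. After Benjamini-Hochberg adjustment in limma, 0.781% of all genes passed, and of the members only Slc38a4 did, at an adjusted p of 0.0389. As both arrays may hold the same RNA, these p-values too may hold nothing about how much mice differ.

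The direction agreed between arrays for 18 of 20 members, with 8 higher on both and 10 lower on both, and it was opposite for Slc7a2 and Slc7a5. That is 90% of the members, whereas 54.5% of all tested genes kept their direction. Among genes above background in all 4 channels, which leaves out Slc7a10 and Slc1a3, it was 88.9% of members beside 56.8% of all. Of these members 44.4% were lower on both arrays and 44.4% higher on both. Some signs rest on ratios smaller than their error, such as -0.02 for Slc7a8 on array 2 and 0.06 for Slc3a2 on array 1. The mean log2 ratio was within 0.5 of 0 for 16 of 20 members, or 80%, beside 93.9% of all genes. Slc7a10 and Slc1a3, which lay outside that range, passed the filter on array 2 by their WT channel only. Among genes above background in all 4 channels, the share within 0.5 of 0 was 88.9% of members beside 95.7% of all genes. The median of the members was -0.14, with -0.14 on array 1 and -0.02 on array 2, and that of all genes was 0.01. Among the 18 members above background in all 4 channels that is without Slc7a10 and Slc1a3, the median was -0.0018.

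**Figure D2:**
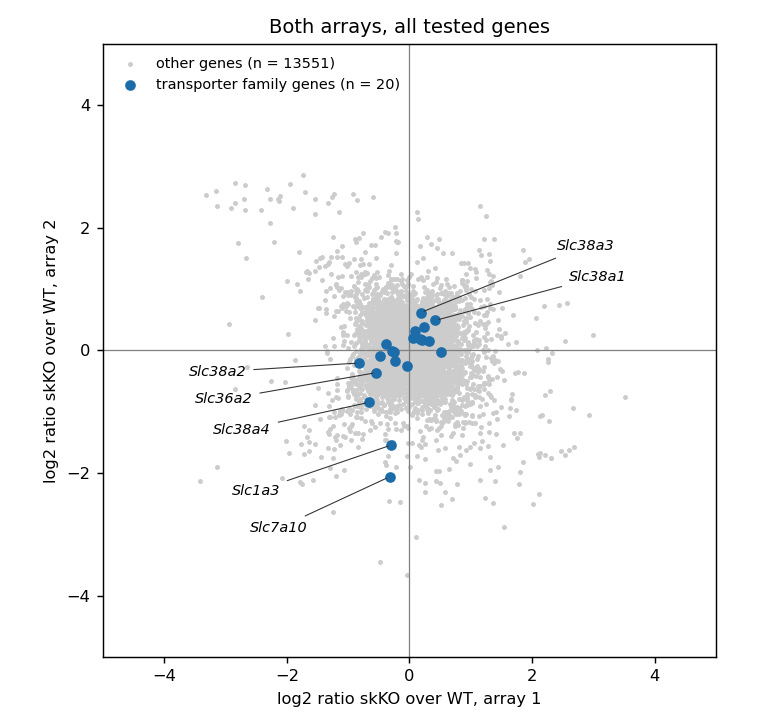
Log2 ratio of Gde5 skKO over WT on array 1 (horizontal) and array 2 (vertical) for the 20 tested member genes (blue) and the other 13551 tested genes (grey), 1 point a gene. Most members lie near the centre, with Slc38a4 lower on both arrays and Slc1a3 and Slc7a10 far lower on array 2 than on array 1.

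Within SLC38, Slc38a1 and Slc38a3 had ratios above 0. Slc38a1, the system A carrier SNAT1, had signals of 154 in Gde5 skKO and 115 in WT on array 1 and 197 and 140 on array 2, so that both Gde5 skKO values exceeded both WT values. Its log2 ratios were 0.42 and 0.49, with Feature Extraction p-values of 0.0925 and 0.0452, and it was not called. With 6 probes it had the most of any member. A second probe, above background in 3 channels, had ratios of 0.50 and 0.42, neither past the threshold, and the other 4 were above background in none. With normexp background correction and loess the mean of Slc38a1 was 0.21 in place of 0.46, and with loess and no background correction 0.18.

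Slc38a3 encodes SNAT3, a system N carrier that moves glutamine, histidine and asparagine in either direction. Its signal was 879 in Gde5 skKO and 774 in WT on array 1 and 1094 and 713 on array 2. Both Gde5 skKO values were above both WT values, and the gap was wider on array 2. The log2 ratios were 0.18 and 0.62, with Feature Extraction p-values of 0.374 and 0.00424, and the gene was not called because array 1 missed the threshold.

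Slc38a2 encodes SNAT2, the system A carrier whose mRNA is known to rise when cells lack amino acids. Its brightest probe, on the minus strand of chromosome 15 at 96516094 to 96516153, had signals of 2896 in Gde5 skKO and 5114 in WT on array 1 and 4040 and 4660 on array 2. The log2 ratios were -0.82 and -0.21, with Feature Extraction p-values of 0.000162 and 0.315. Both Gde5 skKO values were below both WT values, but array 2 missed the threshold and the gene was not called.

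The 4 probes of Slc38a2 disagreed. The probe at 96517739 to 96517798, designed on the same transcript as the brightest, had log2 ratios of -0.54 and -0.37, also lower on both arrays. The other pair was designed on a separate cDNA record and lies upstream: the probe at 96526116 to 96526175 had ratios of -0.27 and -0.05, and the probe at 96525025 to 96525084 had -0.03 and 0.58, the latter with a Feature Extraction p-value of 0.0125. The mean over all 4 probes was -0.21, against -0.51 for the brightest, and no probe of Slc38a2 was called.

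**Figure D3:**
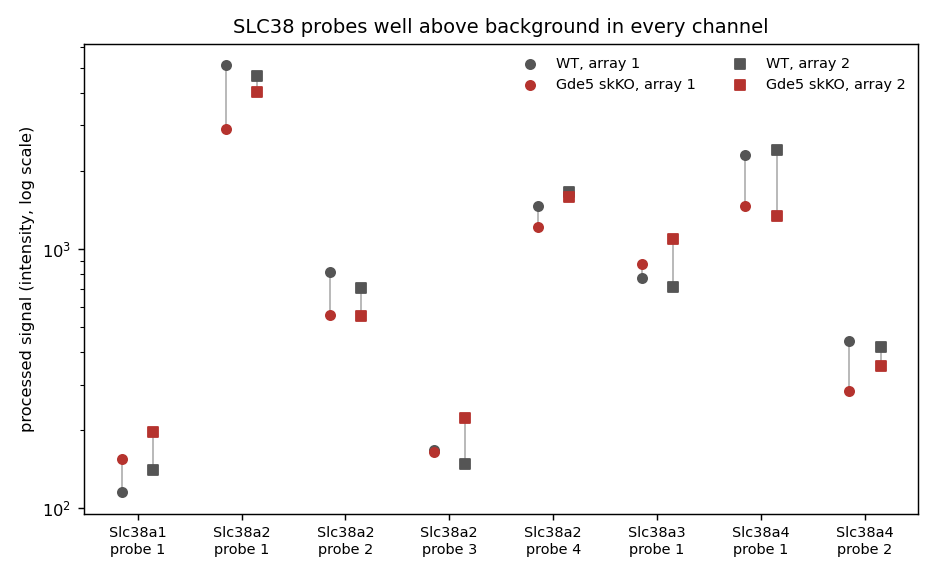
Processed signal (intensity, log scale) in WT (dark grey) and Gde5 skKO muscle (red) on array 1 (circles) and array 2 (squares), for the 8 SLC38 probes above background in all 4 channels, ordered by gene and position. Levels of different probes are not comparable, and within a probe the gap between the colours is the ratio. Red lies below grey on both arrays for both probes of Slc38a4 and above it for Slc38a1 and Slc38a3, while the 4 probes of Slc38a2 differ.

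Slc38a1, Slc38a2 and Slc38a4 follow each other on chromosome 15 in mm8, with 48.6 kb between the probes of the first pair and 297 kb between those of the second. Their mean log2 ratios were 0.46, -0.51 and -0.75, so genes of this cluster had different signs. The interval of Slc38a1, from 0.11 to 0.80, did not overlap that of Slc38a4, although Slc38a1 was nearer 0 with normexp and loess, as given above. Both intervals cover the error within arrays only. Slc38a1 and Slc38a4 also had the highest and the lowest mean of the members above background in all 4 channels. On chromosome 11, the neighbours Slc36a2 and Slc36a1, 56.5 kb apart, had mean ratios of -0.45 and -0.15. Slc43a1 and Slc43a3 on chromosome 2, 94.7 kb apart, had -0.29 and 0.18. On chromosome 14, Slc7a7 and Slc7a8, 352 kb apart, had 0.19 and -0.15. These differences between neighbours were not tested.

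Neither the CD98 heavy chain nor any SLC7 light chain that pairs with it was called. Slc3a2, which encodes the heavy chain, had signals of 2582 in Gde5 skKO and 2476 in WT on array 1 and 3071 and 2677 on array 2, with log2 ratios of 0.06 and 0.20. Its light chain Slc7a5, or LAT1, which imports leucine and other large neutral amino acids, had signals of 80 against 56 and 111 against 114, with ratios of 0.52 and -0.03 that had opposite signs. Slc7a8, or LAT2, was at 622 against 755 and 736 against 744, with ratios of -0.28 and -0.02. Ratios of Slc3a2, Slc7a5 and Slc7a8 did not pass the threshold on either array. A second Slc3a2 probe, above background in no channel, had ratios of 1.71 and 0.81, and the mean over both Slc3a2 probes was 0.69.

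Slc7a6 and Slc7a7 encode light chains that exchange cationic for neutral amino acids. Slc7a7 had signals of 178 in Gde5 skKO and 155 in WT on array 1 and 179 and 159 on array 2, with log2 ratios of 0.20 and 0.17. Slc7a6 had 314 and 251 on array 1 and 356 and 321 on array 2, with ratios of 0.32 and 0.15. Its second probe above background in all 4 channels had ratios of -0.22 and -0.10, so the brighter and the dimmer of these probes had opposite signs, neither past the threshold on any array. Its other probe was above background in no channel. Slc7a6os, whose probe lies 2.29 kb from those of Slc7a6, was at -0.25 and -0.02. For the cationic amino acid carrier Slc7a2 the signals were 75 and 98 on array 1 and 83 and 77 on array 2, giving ratios of -0.39 and 0.10.

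Slc7a10 had the lowest mean log2 ratio of the members, -1.19, and was not called. It encodes Asc-1, an exchanger of small neutral amino acids known from brain and white fat. The signals were 65 in Gde5 skKO and 81 in WT on array 1, and 29 and 119 on array 2, where the Gde5 skKO channel was not well above background. The log2 ratios were -0.32 and -2.06, with Feature Extraction p-values of 0.294 and 2.27e-05, so most of the mean came from array 2. With normexp background correction and loess the mean was -0.17.

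Most adipocyte markers were lower in the same muscle. Of 7 on the arrays, 6 were tested and 5 called lower: Cfd at -0.90, Retn at -0.83, Cidec at -0.70, Plin1 at -0.69, and Adipoq, with -0.97 on array 1 and -1.03 on array 2. Fabp4, which capillary endothelium also expresses, was at 0.05, and Lep was not above background. The summed signal of the 7 genes was 43239 and 41153 in Gde5 skKO and 43785 and 45077 in WT, of which Fabp4 made up 38866, 36769, 35638 and 37187. Their part in the values of Slc7a10 was not tested.

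Of the glutamate and neutral amino acid carriers of SLC1, none was called. Slc1a5, or ASCT2, an exchanger of glutamine and other neutral amino acids, had signals of 1153 in Gde5 skKO and 1363 in WT on array 1 and 1238 and 1395 on array 2. Both Gde5 skKO values lay below both WT values, by log2 ratios of -0.24 and -0.17 that did not pass the threshold on either array. Slc1a1, the glutamate carrier found outside nerve tissue as well, had 180 against 168 and 193 against 155, with ratios of 0.10 and 0.32, and its second probe had 0.13 and -0.22. Slc1a3, a glutamate carrier of glia, had 46 against 57 and 33 against 98, with ratios of -0.29 and -1.54, and its Gde5 skKO channel on array 2 was not well above background. With normexp and loess Slc1a3 had a mean of -0.25 in place of -0.92.

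Proton-coupled carriers of SLC36 move small amino acids such as glycine, alanine and proline. Slc36a2, or PAT2, had signals of 128 in Gde5 skKO and 186 in WT on array 1 and 157 and 202 on array 2, with both Gde5 skKO values below both WT values. Its log2 ratios were -0.54 and -0.36, with Feature Extraction p-values of 0.0203 and 0.116, so it was not called. With normexp and loess its mean was -0.24 in place of -0.45. Slc36a1, or PAT1, which also sits on lysosomes, was at 174 against 180 and 157 against 187, with ratios of -0.04 and -0.26.

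The SLC43 family holds the facilitated carriers of large neutral amino acids Slc43a1 (LAT3) and Slc43a2 (LAT4), and Slc43a3, whose product has been described as a carrier of purine bases. Slc43a1 had signals of 829 in Gde5 skKO and 1162 in WT on array 1 and 848 and 907 on array 2, with log2 ratios of -0.49 and -0.10. It passed the threshold on array 1, at a Feature Extraction p-value of 0.0203, but not on array 2, at 0.646. Slc43a2 was at 156 against 132 and 165 against 127, with ratios of 0.24 and 0.38 and a mean of 0.31 that was 0.09 with normexp and loess. Slc43a3 was at 1383 against 1226 and 1421 against 1248, with ratios of 0.17 and 0.19. For the brightest probes of Slc43a2 and Slc43a3 the Gde5 skKO values were above the WT values on both arrays, and neither passed the threshold on either array. A second Slc43a2 probe, above background in 1 channel, had ratios of 1.03 and -1.08. It passed the threshold on array 1 only, at a Feature Extraction p-value of 0.0190, and the mean over both Slc43a2 probes was 0.14.

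**Figure D4:**
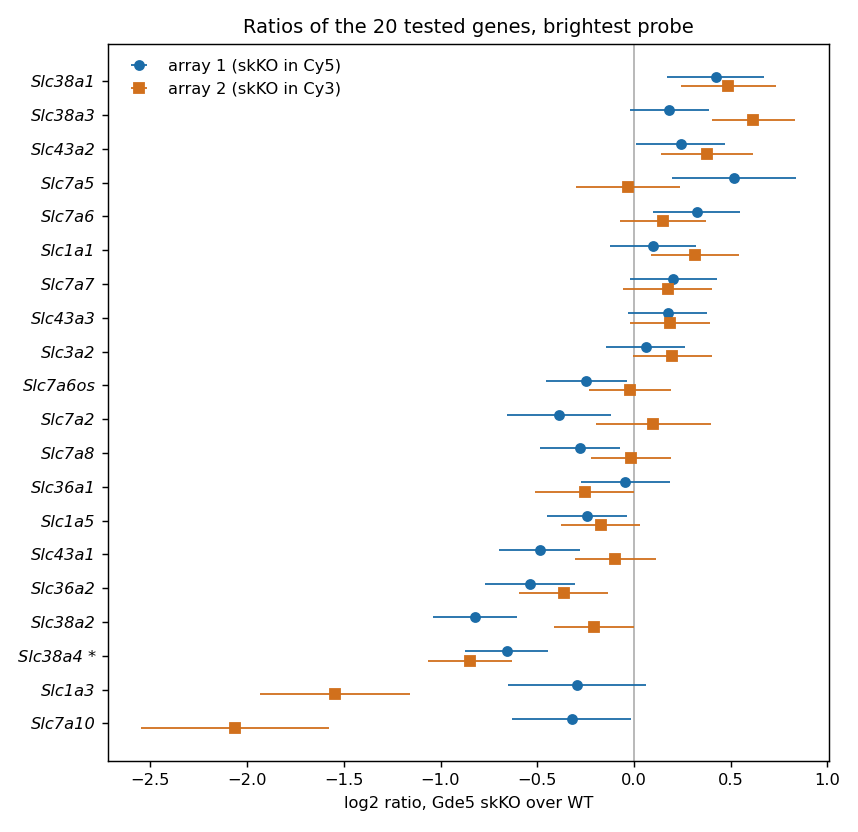
Log2 ratio of Gde5 skKO over WT for the brightest probe of each of the 20 tested genes, on array 1 (blue circles) and array 2 (orange squares), ordered by their mean, with bars of the Feature Extraction error of each ratio. Slc38a4, marked by an asterisk, is the gene that was called, at -0.66 and -0.85. The largest gap between arrays is that of Slc7a10, at -0.32 and -2.06.

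Other genes of amino acid handling were counted in lists chosen by role. Of 17 other carriers of the plasma membrane, mostly of SLC6, 9 were tested and 0 called, with a median log2 ratio of 0.07. The taurine carrier Slc6a6 was at -0.44 and -0.23, the creatine carrier Slc6a8 at 0.12 and 0.07, and the glycine carrier Slc6a9 at -0.40 and -0.70. Of 19 carriers of mitochondria, lysosomes and vesicles, 18 are on the arrays and 11 were tested. Slc25a22, the mitochondrial glutamate carrier, was called higher at 0.51 and 0.94, but its WT channel on array 2 was not well above background, and normexp and loess gave a mean of 0.18.

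Among 16 enzymes of glutamine and glutamate, 13 were tested, with a median of -0.07. Gpt, which transfers amino groups between alanine and 2-oxoglutarate, was called higher, with signals of 2643 in Gde5 skKO and 1976 in WT on array 1 and 3107 and 2064 on array 2, or log2 ratios of 0.42 and 0.59. Glutamine synthetase, Glul, was at -0.32 and -0.58 and was not called. Of 32 genes that carry amino acid supply to mTORC1, 30 were tested and 2 called lower: Rraga, the Rag GTPase A, at -0.54 and -0.75, and Sesn2, a leucine sensor, at -0.52 and -0.53. The other 28 were not called, and the median was -0.02.

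The amino acid response, in which GCN2 and ATF4 raise carriers and synthetic enzymes when amino acids are short, was represented by 26 genes, of which 22 were tested, 0 called higher and 3 called lower. Ddit4, an inhibitor of mTORC1, was at -0.84 and -0.91, Chac1, which degrades glutathione, at -0.58 and -0.60, and Sesn2, which is on both lists, as given above. Atf4 itself was at -0.25 and 0.12 and asparagine synthetase, Asns, at 0.38 and -0.22, so neither kept its direction. Mthfd2 passed the threshold with opposite signs, at 1.67 and -0.70, but its WT channel on array 1 was not well above background. Opposite signs go with the array, where the dye and an unlabelled state cannot be told apart. Each of these counts stands beside the background of 1.58% higher and 1.74% lower calls, and the lists were described by counts and medians only.

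**Figure D5:**
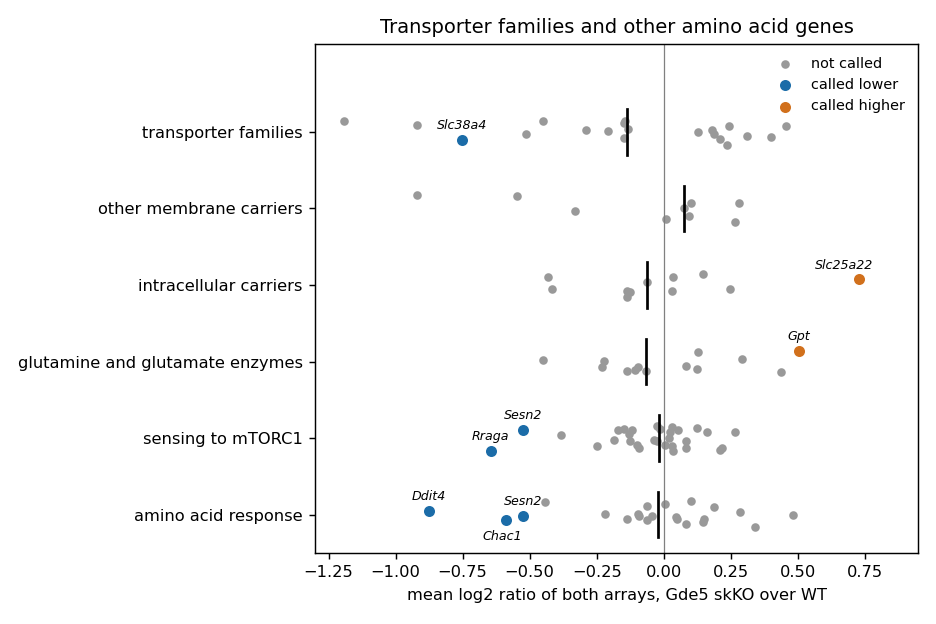
Mean log2 ratio of both arrays, Gde5 skKO over WT, for the tested genes of the transporter families and of the other lists of amino acid genes, 1 point a gene, spread vertically for legibility. Black bars are medians, blue points genes called lower and orange points genes called higher. Medians lie between -0.14 and 0.07, with 1 called gene, Slc38a4, in the transporter families.

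Markers of the muscle fibre were all tested, 10 of 10, and none was called, and the same held for the 8 endothelial, 7 fibroblast and tendon, 4 smooth muscle and 3 blood markers on the arrays and for the 6 of 8 leukocyte markers tested. Of 6 nerve markers tested, Ncam1 was called higher at 0.53 and 0 were called lower. Their median was -0.04, with 1 higher on both arrays and 2 lower on both. Of the 2 kidney markers tested, Kap was called lower at -1.82, and Aqp2, at 0.07, was not called. The carriers Slc3a1 and Slc7a9, known from kidney, were above background in no channel. Whether kidney RNA had a part in the value of Kap was not tested.

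Some genes whose present names begin like those of these families carry older names on the arrays and so fall outside the choice by name. There were 6, of which Slc38a7, Slc38a9 and Slc38a10 were tested and 0 called, with mean log2 ratios of 0.00, -0.11 and -0.22. Slc38a8, Slc38a11 and Slc36a1os were not tested, and Slc36a1os, named for the opposite strand of Slc36a1, is not a carrier.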

How the data were processed

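RNA of WT and Gde5 skKO GAS muscle was compared on 2 dye-swapped Agilent arrays on 1 slide, and the labels gave the dyes. Per the file headers, Feature Extraction 9.5.3.1 read the scans. As deposited, each spot has a log10 ratio (red Cy5 to green Cy3), background-subtracted and dye-normalized by that software. Its p-value and error were deposited by the authors beside it, as was the intensity in either channel. A series table deposited by the authors holds the same log10 ratio, not turned for array 2.

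Here ratios were converted to log2, given the direction Gde5 skKO over WT, and averaged where a probe had several spots. Control spots and outlier spots, 195 on array 1 and 221 on array 2 of 43379, were left out. Symbols of other genes came from a RefSeq table, 24303 probes by accession, 6288 by symbol and 2419 by synonym, while 8059 kept the array's name. Members kept the array's names. The array annotation gave the coordinates, on mm8.

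Errors of the mean combined the Feature Extraction errors of both arrays. No test across mice was made, and 2 arrays limit the precision of every ratio. The members and lists were chosen with earlier results of these data known. Values per array were given for members with a called probe, with a probe above background in all 4 channels, or with probes of which some were called, and other members were named by their flags. Slc7a10 and Slc1a3 fall outside that rule and were added after their values were seen. Of other genes, those called in a list and at most 3 more a list were named.

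Other settings tried were normexp (offset 50) with loess, in limma 3.58.1 on R 4.3.3, no background correction, the series table, median centring, other filters and thresholds, all probes, the methods' t-test, limma's moderated test, the dye direction and each array alone. The remaining steps ran in Python 3.11.15 with pandas 2.3.3, numpy 2.4.6, matplotlib 3.10.9 and scipy 1.17.1, and were tested on simulated data.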

Additional observations from a re-analysis of the deposited data

How the results depend on the processing

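The counts of called members, 0 higher and 1 lower, were the same with normexp and loess, no background correction, the series table, median centring, either other filter, all probes of a gene, probes in place of genes, a Feature Extraction p-value under 0.01 and limma's adjusted test. Settings that alter the ratio alone left the p-values as deposited, so they could move a call by its sign only. Other rules moved them. For members called lower, the count was 0 with p-values adjusted on each array, 3 by limma's unadjusted test, 3 by the methods' t-test and 0 after its adjustment, 0 in the dye direction and 3 to 4 on a single array, where the lower Slc38a4 was past the threshold on each. For members called higher it was 1 by limma's unadjusted test and 0 to 2 on a single array. Over all genes 450 were called, 234 under a p-value of 0.01, 126 with adjustment on each array, 1155 and 106 by limma's test before and after adjustment, 939 and 0 by the methods' t-test before and after, 212 in the dye direction and 1647 to 1878 on a single array. The median of -0.14 became -0.0018 over members above background in both channels and 0.11 with no filter, and was -0.14 without array 2 and -0.018 without array 1. With normexp and loess it was -0.073, and -0.064 without background correction. With normexp and loess the ratios of 20 of 20 tested members kept their sign, and 12 were over 1.5 times nearer 0. The mean over all probes of Slc7a6, -0.21 in place of 0.24, includes a probe above background in no channel, so that mean measures no reversal. The Slc7a6 probes above background in all 4 channels differed in sign, with means of 0.24 and -0.16, so its direction was not settled. Every ratio, and limma's test of the ratios, sets the genotypes against each other within an array, which the methods' t-test of channel values leaves out. The slide was not run as a block since both arrays share it. Signal over background limits what can be said of the 17 genes not tested.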
